A study of Mus musculus with 9 samples.

Results

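Cholesterol synthesis was followed through 8 genes in hearts of Tg-RKIP mice, of mice labelled Tg-GRK2 and of non-transgenic FVB controls. The genes were chosen by name from the 41710 gene names of the deposited tables, and their transcripts were summed by gene. They are the synthetic enzymes Hmgcs1, Idi1, Fdps, Fdft1, Sqle, Lss and Cyp51 and the sterol-dependent regulator Insig1. No gene of cholesterol uptake is among them, and uptake was followed in a separate list of pathway genes. All 8 passed the expression filter and were among the 15504 genes tested.

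The mice were males of the FVB/N strain aged 8 months, kept on standard chow, and each group held 3 libraries numbered as replicates. The study counts those of Tg-RKIP and FVB as hearts. Tg-RKIP mice carry an RKIP transgene that is driven in heart muscle cells by the alpha-MHC promoter. The promoter of the GRK2 transgene is not given in the sources used here. RNA from whole pulverised hearts was sequenced as single reads of 50 bases.

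Mammalian cells build cholesterol from acetyl-CoA through mevalonate, isoprenoid diphosphates and squalene, which is then oxidised and closed into the sterol ring. When sterols in the endoplasmic reticulum run low, the SCAP escort protein carries SREBP to the Golgi, where the proteases encoded by Mbtps1 and Mbtps2 release the transcription factor that switches on these enzymes. Insig proteins hold SCAP back when sterols are plentiful, and Insig1 is itself an SREBP target. The isoprenoid intermediates also feed the side chain of ubiquinone, the electron carrier of mitochondria, and the lipid anchors of proteins.

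SREBP binds sterol response elements near the start of its target genes, usually beside sites for the CCAAT-binding factor NF-Y or the GC-box factor Sp1. RefSeq promoter windows of GRCm38.p6, from 250 bases before to 50 bases after the start of the gene, were matched for 5 of the 8 genes, namely Cyp51, Hmgcs1, Idi1, Insig1 and Lss. The letters CACNCCAC, a core of the sterol response element, were searched on both strands and occurred in 2 of these 5 windows, against 6.24% of all 32851 windows. CCAAT occurred in 5 of 5, against 37.4%, and GGGCGG, the GC box, in 5 of 5, against 35.7%. These letters were chosen after the data had been seen, and a match describes the sequence and not a bound site. Other forms of the sterol response element were not searched, so a window without CACNCCAC is not shown to lack one. The windows of Hmgcs1 and Insig1 are shown because they hold the CACNCCAC match although the transcripts of these genes moved in opposite directions after normalization, and that of Cyp51 because it holds none. Capitals mark matches of CACNCCAC and CCAAT on either strand, and none of them overlap.
Hmgcs1 (chr13:119690101-119690400, plus strand): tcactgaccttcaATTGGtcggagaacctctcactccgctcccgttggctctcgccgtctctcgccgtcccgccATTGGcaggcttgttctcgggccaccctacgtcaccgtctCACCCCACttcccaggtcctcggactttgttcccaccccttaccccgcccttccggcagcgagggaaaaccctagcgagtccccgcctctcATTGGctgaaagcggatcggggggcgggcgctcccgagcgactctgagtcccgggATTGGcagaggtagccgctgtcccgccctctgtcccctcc
Insig1 (chr5:28071162-28071461, plus strand): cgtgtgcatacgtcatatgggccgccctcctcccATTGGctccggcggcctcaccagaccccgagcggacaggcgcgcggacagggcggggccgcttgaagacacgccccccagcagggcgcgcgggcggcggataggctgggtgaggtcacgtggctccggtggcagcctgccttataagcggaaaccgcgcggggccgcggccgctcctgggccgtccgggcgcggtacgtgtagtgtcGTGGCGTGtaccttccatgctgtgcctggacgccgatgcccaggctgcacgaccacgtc
Cyp51 (chr5:4104648-4104947, minus strand): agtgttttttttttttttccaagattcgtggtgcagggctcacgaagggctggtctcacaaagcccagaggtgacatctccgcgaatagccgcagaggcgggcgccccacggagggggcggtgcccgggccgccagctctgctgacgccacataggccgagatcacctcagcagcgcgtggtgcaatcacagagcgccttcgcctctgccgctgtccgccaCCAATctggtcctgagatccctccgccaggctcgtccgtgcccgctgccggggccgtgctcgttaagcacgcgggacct
The CACNCCAC match lay 136 bases before the start in Hmgcs1 and, on the minus strand, 9 bases before the start in Insig1.

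The libraries held 25458108 to 33447654 reads assigned to transcripts. Pebp1, the gene of RKIP, had 252196 to 321666 reads in Tg-RKIP hearts and 7140 to 8446 in FVB, whereas Grk2 was not higher in the libraries labelled Tg-GRK2 than in FVB (log2 fold change 0.05, SE 0.038, adjusted p = 0.354), so those libraries are named by their label. The share of reads from mitochondrially encoded genes was 23.1 ± 0.158% (SD, n = 3) in FVB and 22.6 ± 0.299% in the libraries labelled Tg-GRK2, but 11.7 ± 0.156% in Tg-RKIP. Scaling to the total moved the median log2 fold change of all genes against FVB from 0.01 to 0.38, and the part of the mitochondrial genes in this shift was not tested. Under the trimmed mean normalization (TMM), Tg-RKIP hearts had 5709 genes above and 5751 below FVB, and with the total alone 9710 (62.6%) and 2649 (17.1%). Against the libraries labelled Tg-GRK2 they were 5874 higher and 5677 lower with TMM, and 9608 (62%) and 2847 (18.4%) with the total alone. Fold changes below are from TMM-normalized counts, and TPM, the transcript level per length, is relative to all transcripts including the mitochondrial ones. Airway secretory genes, which a heart should lack, were at 0 in FVB for all 4 markers, with sums of 84.6 to 90.0 TPM in Tg-RKIP and 180.1 to 190.5 TPM under the Tg-GRK2 label. In whole-heart RNA, fewer cells of a type and less RNA per cell cannot be told apart.

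In FVB hearts the levels fell in the order Hmgcs1, Fdft1, Fdps, Insig1, Cyp51, Idi1, Sqle and Lss, from 21.0 ± 0.268 TPM (SD, n = 3) for Hmgcs1 to 0.645 ± 0.0839 TPM for Lss. No gene overlapped its neighbour in that order over the 3 libraries. The libraries labelled Tg-GRK2 had the same order, with Sqle and Lss overlapping. In Tg-RKIP hearts Fdps came first at 27.9 ± 1.52 TPM, Hmgcs1 followed and Insig1 stood above Fdft1, again without overlap between neighbours.

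**Figure D1:**
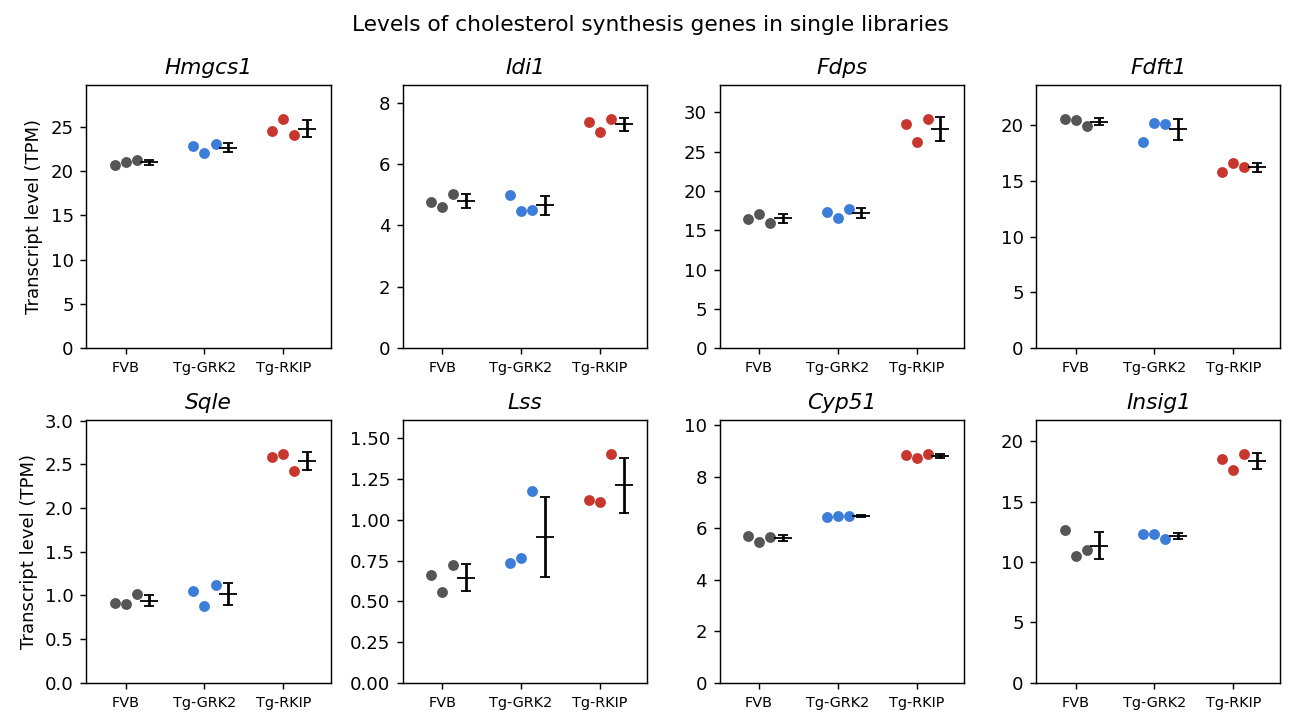
Levels in TPM (vertical axes, starting at 0) of the 8 cholesterol genes in each library of FVB, Tg-GRK2 and Tg-RKIP hearts, with points for libraries and bars for mean ± SD (n = 3). Fdft1 lies lower in Tg-RKIP than in FVB and the other 7 genes lie higher, with no overlap between these groups in any panel.

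The first question was how the hearts of Tg-RKIP mice differ from those of FVB controls. Of the 8 genes, 6 rose and 2 fell by edgeR, against a background of 73.9% of all tested genes called in either direction (36.8% higher and 37.1% lower). Sqle, Lss, Fdps, Insig1, Cyp51 and Idi1 rose, whereas Fdft1 and, after TMM normalization, Hmgcs1 fell. Their median log2 fold change was 0.27, beside 0.01 for all genes tested. In TPM, the libraries of these groups did not overlap for 8 of 8 genes, beside 78.8% of all tested genes, and the exact two-sided permutation test on each then gives p = 0.1, the smallest value that 3 libraries against 3 allow. When a fold of more than 1.2 was required, Sqle and Lss remained higher and Fdft1 lower, and 49.4% of all genes were called. Most of the transcriptome differed between these groups, and the genes are therefore described by the size and direction of their differences.

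Sqle (chromosome 15, 59186926 to 59203041, plus strand) encodes squalene epoxidase, which adds oxygen to squalene and is a rate-limiting step of the later pathway. Its level was 2.58, 2.62 and 2.42 TPM in the Tg-RKIP hearts and 0.910, 0.898 and 1.01 TPM in FVB. Every Tg-RKIP heart stood far above every control, and the 3 libraries labelled Tg-GRK2, at 1.06, 0.875 and 1.11 TPM, overlapped the controls. In counts the gene was 2.01-fold higher than in FVB (log2 fold change 1.01, SE 0.14, adjusted p = 1.24e-06), the largest change of the 8 in the upward direction. The value stayed between 0.97 and 1.06 when any library was left out. Only 109 to 155 reads in Tg-RKIP and 45 to 52 reads in FVB lay behind it. The division of these reads between its transcripts jumped between libraries of the same group, and the most abundant transcript alone had a log2 fold change of 1.38 (SE 0.94) that was not past the threshold (adjusted p = 0.241).

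Lss (chromosome 10, 76367422 to 76392972, plus strand) encodes lanosterol synthase, which closes oxidised squalene into the sterol ring. Levels were 1.12, 1.11 and 1.40 TPM in Tg-RKIP and 0.660, 0.555 and 0.721 TPM in FVB, so the groups lay apart. The log2 fold change was 0.53 (SE 0.12, adjusted p = 0.000575). A transcript annotated with a retained intron took 83.0% of its reads in Tg-RKIP, 60.6% in FVB and 52.6% under the Tg-GRK2 label, with single libraries from 72.4% to 87.3% in Tg-RKIP and from 41.5% to 82.4% in FVB. In the transcript fit described for Fdft1 below, this form (ENSMUST00000160671) rose by 1.03 (SE 0.33, adjusted p = 0.046). The protein-coding ENSMUST00000048678 had 16, 17 and 10 reads in Tg-RKIP and 26, 9 and 33 in FVB, with a log2 fold change of -1.03 (SE 0.53, adjusted p = 0.182). Cyp51 (chromosome 5, 4131145 to 4154746, minus strand), the demethylase that acts on lanosterol, had 8.85, 8.72 and 8.89 TPM in Tg-RKIP against 5.70, 5.49 and 5.68 TPM in FVB. Its libraries were nearly level within each group, and it rose by a log2 fold change of 0.23 (SE 0.049, adjusted p = 0.000221).

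Fdps (chromosome 3, 89000895 to 89009266, minus strand) encodes farnesyl diphosphate synthase, whose product is the branch point to sterols, ubiquinone and lipid anchors. It was at 28.5, 26.2 and 29.1 TPM in Tg-RKIP and at 16.5, 17.1 and 16.0 TPM in FVB. The groups were well separated and the log2 fold change was 0.30 (SE 0.055, adjusted p = 4.68e-05). Idi1 (chromosome 13, 8935537 to 8942487, plus strand), the isomerase that turns isopentenyl diphosphate into dimethylallyl diphosphate, with which it is joined by Fdps, had 7.38, 7.05 and 7.46 TPM in Tg-RKIP and 4.75, 4.60 and 5.03 TPM in FVB. The libraries did not overlap, and Idi1 rose by the smallest amount of the 6, with a log2 fold change of 0.19 (SE 0.067, adjusted p = 0.0164). The call for Idi1 was lost with DESeq2 (adjusted p = 0.0635) and without Tg-RKIP replicate 3 (0.17, adjusted p = 0.054), FVB replicate 1 (0.17, adjusted p = 0.0505) or FVB replicate 2 (0.15, adjusted p = 0.0773), and on its most abundant transcript alone (adjusted p = 0.118).

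Insig1 (chromosome 5, 28276361 to 28283660, plus strand) stood at 18.5, 17.6 and 19.0 TPM in Tg-RKIP hearts and at 12.6, 10.5 and 11.0 TPM in FVB. All Tg-RKIP hearts were higher, with a log2 fold change of 0.30 (SE 0.049, adjusted p = 1.21e-05). Hmgcs1 (chromosome 13, 120151915 to 120169796, plus strand) encodes the cytosolic synthase that makes HMG-CoA, the precursor of mevalonate. It had 24.5, 25.9 and 24.1 TPM in Tg-RKIP and 20.8, 21.0 and 21.3 TPM in FVB, higher in every Tg-RKIP heart. TMM-normalized counts ran the other way, with 1274 ± 37.1 in Tg-RKIP and 1433 ± 18.2 in FVB (SD, n = 3), a log2 fold change of -0.17 (SE 0.035, adjusted p = 0.000214), or -0.10 with each gene counted on its most abundant transcript alone (adjusted p = 0.0811). In the transcript fit described for Fdft1 below, the main transcript ENSMUST00000179869, with 93.5% of the reads, had a log2 fold change of -0.02 (SE 0.042, adjusted p = 0.747), and the minor ENSMUST00000224188 fell by 1.89 (SE 0.45, adjusted p = 0.0133). With scaling to the total alone it was 0.21 (adjusted p = 1.42e-05), which is below the shift of 0.38 that the median gene showed under that scaling. Hmgcs1 was thus lower relative to the median gene and higher relative to all transcripts. A change of scaling shifts all genes by nearly the same amount, so both scalings give the same position relative to the median gene.

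**Figure D2:**
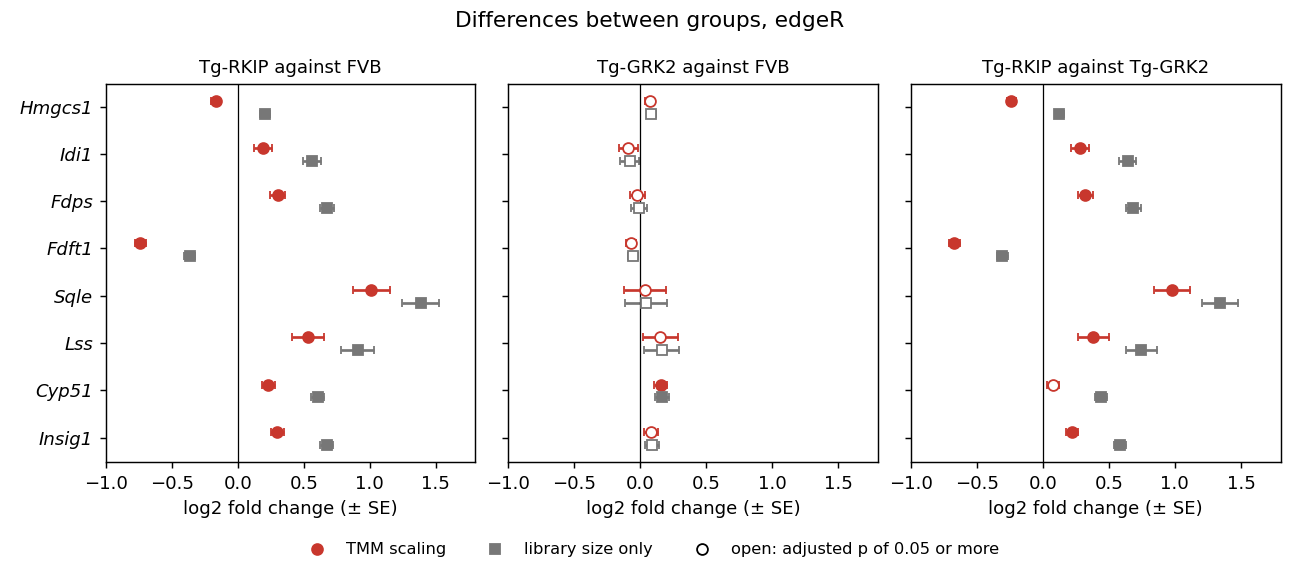
Log2 fold changes ± SE (horizontal axes) of the 8 genes in each comparison, from TMM-normalized counts (circles) and with scaling to library size only (squares), with open symbols for an adjusted p of 0.05 or more. In both comparisons of Tg-RKIP the squares lie to the right of the circles, Fdft1 stays below 0 and Hmgcs1 changes sign, and against FVB the libraries labelled Tg-GRK2 lie near 0.

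Fdft1 (chromosome 14, 63382599 to 63417027, minus strand) encodes squalene synthase, the step that commits farnesyl diphosphate to sterols and lies between Fdps and Sqle. It was at 15.8, 16.6 and 16.3 TPM in Tg-RKIP and at 20.5, 20.5 and 20.0 TPM in FVB. In contrast to the enzymes before and after it, every Tg-RKIP heart was below every control. The log2 fold change was -0.74 (SE 0.041, adjusted p = 3.31e-13), or -0.36 with scaling to the total alone, and Fdft1 was lower under every scaling tried.

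The fall in Fdft1 came with a different division of its reads between transcripts. ENSMUST00000238526, with 7 exons and a start inside the gene, had 342, 684 and 394 reads in Tg-RKIP and 892, 1127 and 921 reads in FVB. ENSMUST00000054963, with 8 exons and a start further upstream, had 427, 353 and 393 reads in Tg-RKIP and 191, 58 and 139 reads in FVB. The internal-start form was lower in every Tg-RKIP heart and the upstream-start form higher, so that the former held 54.3% of the gene's reads in Tg-RKIP and 87.1% in FVB, and the latter 44.8% and 11.5%. Fitted across all 34991 transcripts tested, of which 34% were called, the internal-start form fell by 1.41 on the log2 scale (SE 0.16, adjusted p = 0.000253). For the upstream-start form the log2 fold change of 1.26 (SE 0.45) did not pass the threshold (adjusted p = 0.0646), and it ranged from 0.87 without FVB replicate 2 to 1.66 without FVB replicate 1, where it passed (adjusted p = 0.0383). It passed also with scaling to the total alone (log2 fold change 1.60, adjusted p = 0.025). The spans of these transcripts overlap, and how reads of 50 bases that fit both were divided is not given in the sources used here. The fits on single transcripts were added after the data had been seen.

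**Figure D3:**
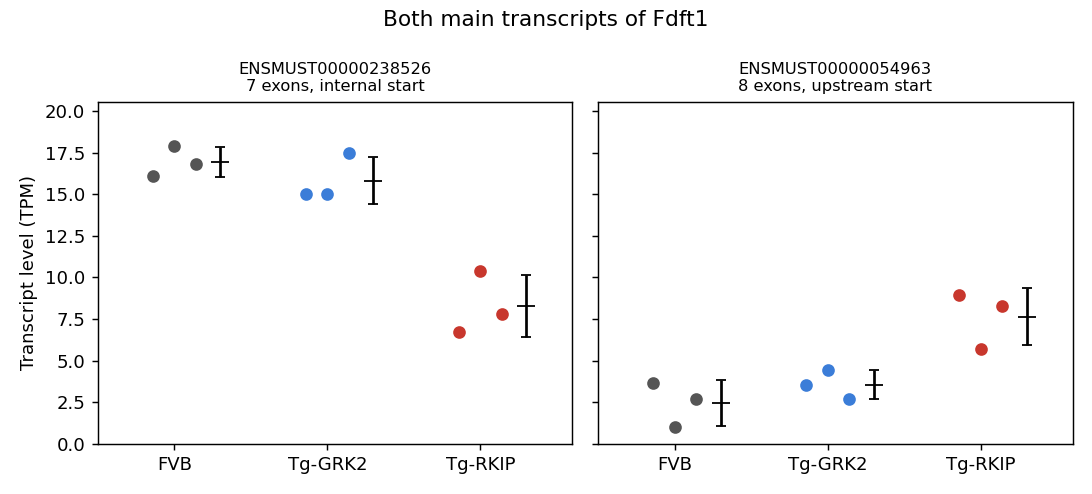
Levels in TPM (vertical axis, starting at 0) of the internal-start and the upstream-start transcript of Fdft1 in each library of FVB, Tg-GRK2 and Tg-RKIP hearts, with bars for mean ± SD (n = 3). The upstream-start form is at 7.64 ± 1.70 TPM in Tg-RKIP against 2.46 ± 1.37 TPM in controls, and the internal-start form is lower in every Tg-RKIP heart than in any other.

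The libraries labelled Tg-GRK2 were compared with the same FVB controls, so both comparisons share those 3 libraries. Of the 8 genes, 1 rose and 0 fell by edgeR (1 and 0 at an unadjusted p under 0.05, and 0 and 0 with DESeq2), against 24.5% of all genes called (12.2% higher and 12.2% lower). The median log2 fold change of the 8 was 0.05, beside -0.00 for all genes tested. At an unadjusted p under 0.05, 5331 of the 15504 genes passed in this comparison. Cyp51 was the gene that rose, from 5.70, 5.49 and 5.68 TPM in controls to 6.43, 6.49 and 6.49 TPM, with a log2 fold change of 0.15 (SE 0.051, adjusted p = 0.03). Its libraries did not overlap between the groups. The call was lost with DESeq2 (adjusted p = 0.0996), without a filter on low counts (adjusted p = 0.0835), without Tg-GRK2 replicate 1, 2 or 3 (adjusted p = 0.0686, 0.0572 and 0.0859) and without FVB replicate 1 or 2 (adjusted p = 0.0565 and 0.112).

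For the other 7 genes the log2 fold changes in this comparison lay between -0.09 for Idi1 and 0.15 for Lss, and none passed the threshold. In TPM the groups did not overlap for 3 of 8 genes, namely Hmgcs1, Lss and Cyp51, beside 33.8% of all tested genes. Hmgcs1 had 22.8, 22.1 and 23.1 TPM in the libraries labelled Tg-GRK2, each above the 20.8 to 21.3 TPM of FVB, with a log2 fold change of 0.07 (SE 0.035, adjusted p = 0.155). Lss was at 0.734, 0.769 and 1.18 TPM, with the third library well above the others. Fdft1 was at 18.5, 20.2 and 20.2 TPM and Insig1 at 12.3, 12.3 and 11.9 TPM, and both overlapped FVB. The internal-start form of Fdft1 held 82.5% of the gene's reads in these libraries, and its log2 fold change against FVB was -0.14 (adjusted p = 0.826), where 3.42% of all transcripts were called. With a fold of more than 1.2 required, 0 of the 8 genes and 2.62% of all genes were called.

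Tg-RKIP hearts were also compared directly with the libraries labelled Tg-GRK2, which reuses the libraries of both preceding comparisons. Of the 8 genes, 5 rose and 2 fell, beside 74.5% of all genes called (37.9% higher and 36.6% lower). The median log2 fold change was 0.25, and it was 0.02 for all genes tested. Sqle differed most among those that rose (log2 fold change 0.98, SE 0.14, adjusted p = 1.45e-06), followed by Lss (0.38, SE 0.12, adjusted p = 0.00656), Fdps (0.32, SE 0.055, adjusted p = 1.72e-05), Idi1 (0.28, SE 0.067, adjusted p = 0.000848) and Insig1 (0.22, SE 0.048, adjusted p = 0.000297). Fdft1 was lower in Tg-RKIP by a log2 fold change of -0.67 (SE 0.040, adjusted p = 1.63e-12). Hmgcs1 was lower with TMM (log2 fold change -0.24, SE 0.035, adjusted p = 2.19e-06) and higher with scaling to the total alone (0.12, adjusted p = 0.00264). Cyp51 was at 8.82 ± 0.0853 TPM in Tg-RKIP and 6.47 ± 0.0341 TPM in the libraries labelled Tg-GRK2 (SD, n = 3), with a log2 fold change of 0.08 (SE 0.047, adjusted p = 0.151) that passed only with scaling to the total (0.44, adjusted p = 1.75e-08) or in TPM. In TPM the libraries of these groups lay apart for 7 of 8 genes, beside 78.5% of all tested genes, and Lss overlapped (adjusted p = 0.0877 by limma on log2(TPM + 0.1)). With a fold of more than 1.2 required, Sqle remained higher and Fdft1 lower, and 51.2% of all genes were called. The internal-start form of Fdft1 was lower in Tg-RKIP here too (log2 fold change -1.27, SE 0.16, adjusted p = 0.00042), where 37% of all transcripts were called.

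The other genes of cholesterol handling were taken from 6 lists, of which 45 genes were tested in addition to the 8. With the 8 included, 27 of 53 genes rose and 14 fell in Tg-RKIP against FVB with TMM, and 46 rose and 6 fell with scaling to the total. In the libraries labelled Tg-GRK2 against FVB, 5 rose and 2 fell (6 and 2 with scaling to the total), and in Tg-RKIP against those libraries 22 rose and 14 fell (44 and 6). The percentages of all genes called with TMM are those given above, as are those for scaling to the total in both comparisons of Tg-RKIP. For Tg-GRK2 against FVB with scaling to the total, 2094 of 15504 genes were higher and 1654 lower. With DESeq2, of 27280 genes with a read, 5413 were higher and 5527 lower in Tg-RKIP against FVB. For Tg-GRK2 against FVB these DESeq2 counts were 1716 and 1385. The counts of single lists are read as descriptions.

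Of 5 further genes from acetoacetyl-CoA to isopentenyl diphosphate, 3 rose and 0 fell in Tg-RKIP against FVB (median log2 fold change 0.34), with 0 lower also at an unadjusted p under 0.05 and with DESeq2. Acat2, the cytosolic thiolase that makes acetoacetyl-CoA, had 10.9 ± 0.475 TPM in Tg-RKIP hearts against 4.56 ± 0.936 TPM in controls (SD, n = 3), a log2 fold change of 0.97 (SE 0.091, adjusted p = 3.6e-09) and on its most abundant transcript alone 1.12 (SE 0.71, adjusted p = 0.21). Mvd, the decarboxylase that completes isopentenyl diphosphate, rose by 0.68 (SE 0.13, adjusted p = 9.26e-05). Pmvk, the kinase before it, had a log2 fold change of 0.08 (SE 0.077, adjusted p = 0.365), and 0.45 with scaling to the total (adjusted p = 1.35e-05). Mvk, mevalonate kinase, named because it completes the count, rose by 0.34 (SE 0.089, adjusted p = 0.00171). Of the 5 genes, 0 passed by edgeR under the Tg-GRK2 label against FVB (0 also at an unadjusted p under 0.05 and 0 with DESeq2).

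Of 9 genes that convert lanosterol to cholesterol, 5 rose and 2 fell in Tg-RKIP against FVB (median 0.31). Ebp, the sterol isomerase, rose by 0.58 (SE 0.074, adjusted p = 3.48e-07) from 14.6 ± 1.85 to 30.3 ± 2.12 TPM. Lbr, a sterol reductase of the nuclear envelope that also binds chromatin, fell by 0.23 (SE 0.048, adjusted p = 0.000187), and Sc5d, the desaturase, by 0.17 (SE 0.049, adjusted p = 0.00316). Both were higher with scaling to the total, by 0.14 and 0.20. On the most abundant transcript alone Sc5d had -0.16 and lost its call (adjusted p = 0.109). Of the 9 genes, 0 passed by edgeR under the Tg-GRK2 label against FVB (1 at an unadjusted p under 0.05 and 0 with DESeq2).

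Of 6 genes that control SREBP, 1 rose and 2 fell in Tg-RKIP against FVB (median 0.02). Srebf1, whose products act mainly on fatty acid genes, rose by 0.30 (SE 0.038, adjusted p = 4.43e-07). Srebf2, the form that acts mainly on sterol genes, had a log2 fold change of 0.09 (SE 0.049, adjusted p = 0.107), or 0.46 with scaling to the total (adjusted p = 1.29e-08), and without FVB replicate 2 it passed at 0.15 (adjusted p = 0.0123). The protease gene Mbtps2 fell by 0.47 (SE 0.056, adjusted p = 1.4e-07), and with scaling to the total its log2 fold change was -0.09 (adjusted p = 0.132). Mbtps1 fell by 0.08 (SE 0.034, adjusted p = 0.0388), which turned to 0.30 with scaling to the total. It lost the call with DESeq2 (adjusted p = 0.0845), with TMM without mitochondrially encoded genes (adjusted p = 0.0542) and when a fold of more than 1.2 was required. The call was lost also without Tg-RKIP replicate 1 or 2 (adjusted p = 0.0918 and 0.0913) and without FVB replicate 1 or 2 (adjusted p = 0.0691 and 0.0564). Of the 6 genes, 0 passed by edgeR under the Tg-GRK2 label against FVB (0 also at an unadjusted p under 0.05 and 0 with DESeq2).

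**Figure D4:**
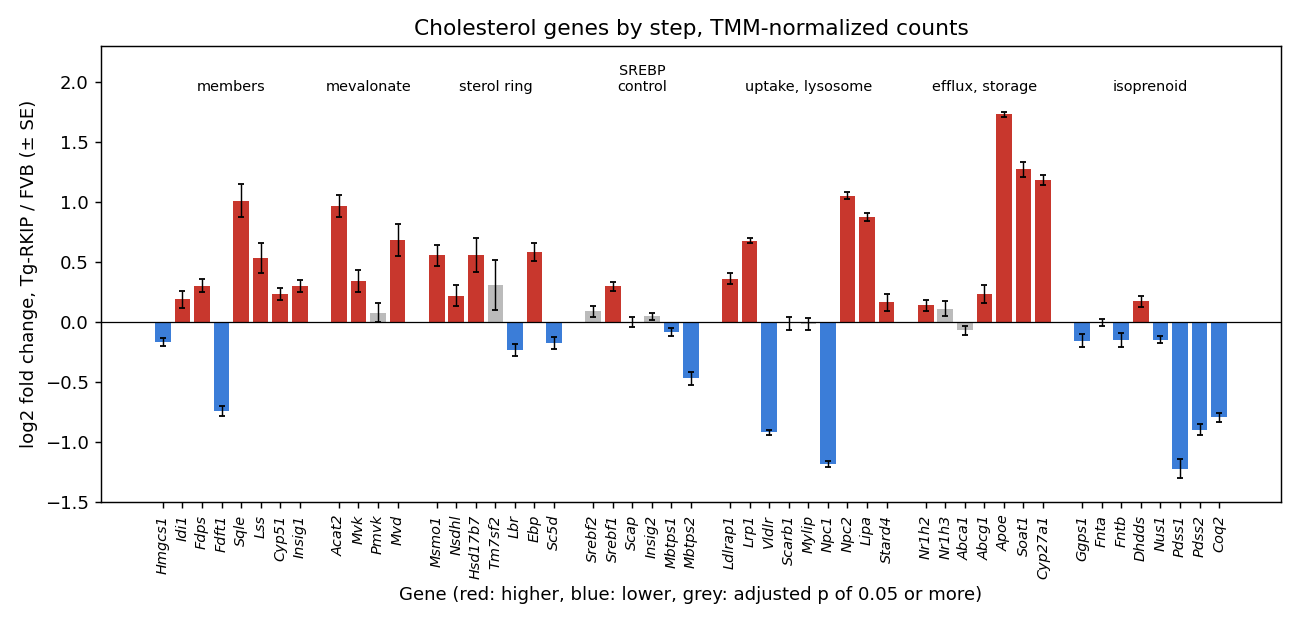
Log2 fold changes ± SE of TMM-normalized counts in Tg-RKIP against FVB hearts (vertical axis) for the 8 genes and for most tested genes of the 6 lists, grouped by step, with red bars for genes that rose, blue bars for genes that fell and grey bars for an adjusted p of 0.05 or more. Fdft1, Vldlr, Npc1, Pdss1, Pdss2 and Coq2 reach furthest below 0, and Sqle, Npc2, Apoe, Soat1 and Cyp27a1 stand above 1.

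Of 10 genes of uptake and lysosomal transfer that could be tested, 6 rose and 2 fell in Tg-RKIP against FVB (median 0.23). The pair that moves cholesterol out of lysosomes divided: Npc2, the soluble carrier, was at 74.7 ± 1.59 TPM in Tg-RKIP against 26.0 ± 1.43 TPM in controls, whereas Npc1, the membrane protein that receives its cargo, was at 38.2 ± 0.634 and 51.9 ± 1.18 TPM. The log2 fold change was 1.05 for Npc2 (SE 0.029, adjusted p = 1.93e-18) and -1.18 for Npc1 (SE 0.024, adjusted p = 6.38e-21). With scaling to the total it was 1.43 for Npc2 and -0.81 for Npc1. On the most abundant transcript alone it was 0.76 for Npc2 (SE 0.082, adjusted p = 5.31e-05). For Npc1 it was -0.26 there (SE 0.068, adjusted p = 0.0111), so the size of its fall depended on the measure. Lipa, the lysosomal acid lipase, rose by 0.87 (SE 0.033, adjusted p = 4.41e-16). Vldlr, a lipoprotein receptor of heart muscle, fell by 0.92 in TMM-normalized counts (SE 0.021, adjusted p = 7.12e-20). Its levels were 71.7 ± 3.25 TPM in Tg-RKIP and 98.6 ± 3.27 TPM in controls. The fall was smaller in that unit, with a log2 fold change of -0.46 by limma on log2(TPM + 0.1), and -0.54 in counts with scaling to the total. In the libraries labelled Tg-GRK2 against FVB, Vldlr rose by 0.13 (SE 0.021, adjusted p = 5.58e-05). The other gene of the list that rose there was the endocytic receptor Lrp1 (0.38, SE 0.023, adjusted p = 4.98e-11), named because it completes the count.

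Of 7 genes of efflux, storage and sterol sensing, 5 rose and 0 fell in Tg-RKIP against FVB (median 0.23), with 0 lower also at an unadjusted p under 0.05 and with DESeq2. Apoe, a lipoprotein component that carries cholesterol and is made in quantity by macrophages, had 2017 ± 38.3 TPM in Tg-RKIP against 488.7 ± 9.34 TPM in controls (SD, n = 3). Its log2 fold change was 1.73 in TMM-normalized counts (SE 0.021, adjusted p = 7.72e-25), and 2.05 by limma on log2(TPM + 0.1). Soat1, which esterifies cholesterol for storage, rose by 1.27 in TMM-normalized counts (SE 0.062, adjusted p = 3.85e-14). Its levels were 9.99 ± 0.753 TPM in Tg-RKIP and 3.50 ± 0.163 TPM in controls, with 1.48 by limma on log2(TPM + 0.1). Nr1h3, a sterol-sensing nuclear receptor, had a log2 fold change of 0.11 (SE 0.062, adjusted p = 0.114), and 0.48 with scaling to the total (adjusted p = 2.17e-07). Abca1, an exporter of cholesterol, had -0.07 (SE 0.036, adjusted p = 0.082), and 0.30 with scaling to the total (adjusted p = 6.66e-08). In the libraries labelled Tg-GRK2 against FVB, Abca1 rose by 0.25 (SE 0.035, adjusted p = 1.38e-05) and Apoe by 0.20 (SE 0.021, adjusted p = 2.14e-07), and 2 genes of the list rose and 2 fell. Those that fell were Abcg1 (-0.36, adjusted p = 0.00277) and Cyp27a1 (-0.31, adjusted p = 6.59e-05), named because they complete the count.

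Of 8 genes that use the isoprenoid intermediates elsewhere, 1 rose and 6 fell in Tg-RKIP against FVB with TMM (median -0.15), and 5 rose and 3 fell with scaling to the total. Ggps1, Fntb and Nus1, named because their direction turned with the scaling, had log2 fold changes of -0.15, -0.15 and -0.15 with TMM. Pdss1 and Pdss2, the subunits of the enzyme that builds the ubiquinone side chain, fell by 1.22 (SE 0.079, adjusted p = 5.72e-12) and 0.90 (SE 0.049, adjusted p = 3.4e-13). In TPM, Pdss1 had 7.38 ± 0.518 in Tg-RKIP against 12.9 ± 0.981 in controls. Coq2, which attaches that chain and is named because of its place beside them, fell by 0.79 (SE 0.037, adjusted p = 1.69e-14). Dhdds, a subunit of the dolichol-making enzyme, rose by 0.17 (SE 0.042, adjusted p = 0.00101), and Fnta, a subunit of the farnesyl transferase, had a log2 fold change of -0.00 (SE 0.031, adjusted p = 0.947) whose sign turned with the scaling. Of the 8, 0 passed by edgeR under the Tg-GRK2 label against FVB (1 at an unadjusted p under 0.05 and 0 with DESeq2).

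Markers of other cells also differed between the groups. The counts below stand beside 73.9% of all tested genes called in Tg-RKIP against FVB (36.8% higher and 37.1% lower). Under the Tg-GRK2 label against FVB, 24.5% were called (12.2% higher and 12.2% lower). In Tg-RKIP against FVB, 5 of 5 fibroblast markers rose, with summed levels of 1913 to 1919 TPM in Tg-RKIP and 800.3 to 833.2 TPM in FVB. Of 5 macrophage markers 5 rose, with 263.2 to 270.7 TPM against 104.1 to 105.0 TPM, and of 6 adipocyte markers 6 rose, with 918.5 to 944.3 TPM against 595.1 to 625.5 TPM. Of 6 heart muscle markers 0 rose and 5 fell with TMM, and their summed level was 43542 to 44432 TPM in Tg-RKIP and 43884 to 44296 TPM in FVB. With scaling to the total, 2 of the 6 rose and 4 fell, beside 62.6% of all genes higher and 17.1% lower, and Tnnt2 turned. The marker counts of this paragraph are from TMM-normalized counts, whereas the sums are in TPM. Of 5 endothelial markers 3 rose and 2 fell, and their summed level was 349.2 to 355.2 TPM against 238.6 to 244.8 TPM. For cells that make much cholesterol, 3 of 5 hepatocyte markers could be tested, of which 1 rose and 2 fell, with summed levels of 3.51 to 4.18 TPM in Tg-RKIP and 3.13 to 3.62 TPM in FVB, and Alb and Apob had 0 reads in every Tg-RKIP library. Of 4 steroidogenic markers 1 could be tested and rose, and their sum was 2.88 to 3.19 TPM in Tg-RKIP and 0.776 to 1.12 TPM in FVB. Under the Tg-GRK2 label against FVB, 3 of 5 fibroblast markers rose and 0 fell, as did 3 of 5 macrophage markers, with summed levels of 867.7 to 876.4 TPM and 111.9 to 117.4 TPM. Of 6 adipocyte markers 4 rose and 1 fell there, but their summed level of 511.4 to 545.7 TPM lay below that of FVB. Of 6 heart muscle markers 2 rose and 4 fell (41510 to 43034 TPM), and of 5 endothelial markers 1 rose and 2 fell (242.8 to 248.0 TPM). Of the 3 hepatocyte markers tested 0 rose and 2 fell (1.17 to 1.26 TPM). The part of these cell types in the differences of Sqle, Fdft1, Apoe and the other genes was not tested.

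Among all other tested genes, those whose log2-scaled TMM counts over the 9 libraries were most like the mean of the 8 genes' standardized levels were Sfrp4 (Pearson r = 0.9936), Tpcn2 (0.9873), Krt8 (0.9843), Fbxl16 (0.984) and Cldn15 (0.9839). Sfrp4, for example, had 76, 76 and 77 reads in Tg-RKIP and 13, 9 and 14 reads in FVB, and its coefficient follows the separation of the groups. Among the 8 themselves, Fdft1 (r = -0.927) and Hmgcs1 (r = -0.76) ran against that mean and the other 6 with it (0.788 for Idi1 to 0.96 for Lss). That mean includes each of the 8 genes itself, which raises its coefficient. These coefficients describe 9 libraries that share 3 group means.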

How the data were processed

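The authors deposited read counts per transcript, whole numbers without normalization, and TPM values per transcript, for 127558 transcripts of 9 libraries. The TPM values matched those recomputed from the deposited counts and transcript lengths to within 5.50e-06. The aligner, the counter and the handling of reads shared by several transcripts, paralogs or pseudogenes are not given in the sources used here, so values of genes with close copies are uncertain. Coordinates are as deposited, and the submitters' processing notes name GRCm39. Promoter windows are from RefSeq on GRCm38.p6, and no position was converted.

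Groups came from the labels. Counts and TPM were summed by gene name. The test on counts was the quasi-likelihood test of edgeR 4.0.16 in R 4.3.3 (TMM, filterByExpr, glmQLFit and glmQLFTest, a mean per group over all 9 libraries), adjusted by Benjamini-Hochberg over 15504 genes, with a threshold of 0.05. The labels number replicates and name no animals, and p-values measure the spread between these libraries, none of which held the same counts as another. That spread was small. The median squared difference between libraries of a group was 1.243 to 1.526 times that from read sampling alone. The coefficient of variation beyond read sampling, estimated by edgeR, was 1.89% in Tg-RKIP, 3.68% under the Tg-GRK2 label and 2.12% in FVB. How much of this spread lies between animals was not tested. Single genes were compared in TPM by an exact two-sided permutation test. DESeq2 1.42.0 and limma 3.58.1 served as alternatives, and the script was tested on simulated data.

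All 8 genes were named. From each list, the 2 highest and the 2 lowest log2 fold changes in Tg-RKIP against FVB were named, except where others are said to complete a count. Some of the genes examined, 2 of that rule among them, are counted in their lists and not reported singly here. The members and lists were chosen with earlier results of these data known.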

Additional observations from a re-analysis of the deposited data

How the results depend on the processing

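Leaving out libraries, DESeq2 size factors, TMM without mitochondrially encoded genes and a fit of only the compared groups turned the direction of no called gene. Of the values of single genes under the alternatives, 720 kept their direction and side of the threshold, 47 lost a call, 19 gained one and 42 turned. The replicate numbers did not pair the libraries (correlations of same-numbered deviations from -0.061 to 0.02). With the replicate block 11401, 3660 and 11491 genes were called, against 11460, 3793 and 11551 without it, in the order Tg-RKIP against FVB, Tg-GRK2 against FVB and Tg-RKIP against Tg-GRK2, and no call of the 8 genes changed. Sqle and Lss rest on 44 to 158 reads per library.

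In Tg-RKIP against FVB, requiring a fold of more than 1.2 left 2 of the 8 genes higher and 1 lower. The lower count was 1 also with library size only, in the 3 limma fits and for the most abundant transcript, since Hmgcs1 turned or lost its call. Over all genes, limma on log2(TPM + 0.1) called 8932 higher and 1964 lower of 13478, and on log2(TPM + 1) 8956 and 1960. Without a filter limma called 10077 and 2137 of 27280, and the most abundant transcript gave 4183 and 4530 of 15177. Against Tg-GRK2, the fold requirement left 1 higher and 1 lower, and library size only and the limma fits left 1 lower. For Tg-RKIP against Tg-GRK2, limma on log2(TPM + 0.1) called 8536 of 13478 genes higher and 2296 lower. In Tg-GRK2 against FVB, 0 rose with DESeq2, with the fold requirement, without a filter and for the most abundant transcript, and 0 to 1 when a library was left out. There 406 genes in all were called with the fold requirement, 2060 in limma without a filter and 1665 for the most abundant transcript, which counts fewer reads.

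Scaling to the total turned the sign of some genes in Tg-RKIP against FVB. Ggps1, Fntb and Nus1, named outside the rule for the lists, turned with library size only. For genes named by that rule and Hmgcs1, values follow with library size only and then in limma on log2(TPM + 0.1) and log2(TPM + 1). Hmgcs1 turned to 0.21, 0.24 and 0.23, Lbr to 0.14, 0.24 and 0.23, and Sc5d to 0.20, 0.18 and 0.17. Mbtps1 turned to 0.30, 0.34 and 0.33, Abca1 to 0.30, 0.34 and 0.30, and Fnta to 0.37, 0.32 and 0.31. Without a filter the limma values at a pseudocount of 0.1 were the same. Hmgcs1 against Tg-GRK2 turned to 0.12, 0.13 and 0.13. Fnta, near 0, turned also with DESeq2 size factors (0.00035), without mitochondrially encoded genes (0.0033), in the fit of 2 groups (0.0034), when a library was left out (-0.031 to 0.020) and for the most abundant transcript (0.17). The latter turned Pmvk to -0.19, Nr1h3 to -0.34 and, in Tg-GRK2 against FVB, Lss to -0.043. In that comparison Fdps turned to 0.057 and 0.054 in limma. Left-out libraries gave Sqle -0.029 to 0.12 and Fdps -0.042 to 0.0077. The causes were not tested.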
